A study of Homo sapiens with 3 samples.

Results

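The genes described here are 10 enzymes with reported activity on G-quadruplexes (G4s), 9 helicases and 1 chromatin remodeler, measured by RNA-seq in HEK293T cells. They are DHX36, DHX9, DDX5, BLM, WRN, PIF1, BRIP1, RTEL1, ERCC2 and ATRX, chosen by name for that activity and not by their levels. They are 10 of 61193 genes, and of 19926 protein-coding genes, to which the measured transcripts were joined. HEK293T is an established line from human embryonic kidney that expresses the large T antigen of the SV40 virus. The samples were 3 replicates of cells in 1 condition with no treatment named, collected 24 h after seeding, so no conditions could be compared and no test was made. Each replicate was a QuantSeq 3′ mRNA-seq library, which is primed at the poly(A) tail and reads the end of a transcript. The labels give the material as genomic DNA and the protocol as total RNA, and the values were treated as RNA.

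A G4 is a DNA or RNA fold in which tracts of guanines stack as planar tetrads, and it forms on the strand opposite to the C-rich strand that can fold into an i-motif (iM). A folded G4 can block a polymerase, and helicases that load on single-stranded DNA or RNA can pull it open. DHX36 and DHX9 are DEAH-box enzymes and DDX5 is a DEAD-box enzyme that act largely on RNA. BLM and WRN are RecQ helicases whose loss causes Bloom and Werner syndromes. BRIP1, also named FANCJ, RTEL1 and ERCC2, also named XPD, share an iron-sulfur cluster and work in crosslink repair, at telomeres and in the repair and transcription factor TFIIH. PIF1 protects G-rich DNA during replication, and ATRX is a remodeler of the SNF2 type that deposits a replacement histone at repeats.

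The libraries held 6262175 to 8521624 counts of reads on transcripts. The mitochondrial genome took 25.8% of the counts in replicate 3 and 5.7% to 9.59% in the other replicates, so replicate 3 stood apart. The defining markers of HEK293T were thin, with 3 of 8 at a mean TPM of at least 1 (PAX2 was the highest at 8.96 ± 3.24 TPM, SD, n = 3) and KRT18, NEFL and NEFM without a count. Of 6 markers of other cell types, ALB, PTPRC, HBB and INS had no count, whereas COL1A1 stood at 24.8 ± 0.33 TPM. In a bulk sample, a low level in every cell and a high level in few cells cannot be told apart. Transcript ends shared with other transcripts, which went with low counts as described below, were not assessed for these markers. Their low values are therefore not read as a lack of the RNA. The study's methods describe the 3 replicates as biological and independent, and the SDs below are over these 3.

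Levels are in transcripts per 1000000 (TPM) and were summed over the transcripts of a gene. In TPM a count is divided by the length of the transcript and every library is rescaled to 1000000. Mitochondrial genes took 44.2% of the TPM in replicate 3, against 22.8% in replicate 1 and 15.4% in replicate 2. This leaves a smaller part of the TPM for all other genes in replicate 3. Of the 10 enzymes, 9 had a mean TPM of at least 1, a level that 38.2% of all protein-coding genes reached, and 5 had at least 10, reached by 19.5%. RTEL1 was the exception and had no count in any replicate, as had 36.5% of protein-coding genes. The same 9 were above 3 counts in every replicate, against 39.5% of protein-coding genes. The 3 counts are the limit that counting error alone sets for a level behind 0 observed counts. The median of the 10 mean levels was 19.7 TPM, and the medians of the 3 replicates had an SD of 4.6. It is the midpoint of ERCC2 at 33.1 TPM and PIF1 at 6.29 TPM, and no gene lay near it. The median was 0.195 TPM over all protein-coding genes and 10.5 TPM over those at or above 1. DHX9, DDX5 and BRIP1 were above the upper quartile of the latter, 37.2 TPM.

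The levels formed an upper set of 5 genes and a lower set of 4. DHX9, DDX5, BRIP1, ATRX and ERCC2 together held 92.9% ± 1.71 (SD, n = 3) of the summed TPM of the 10 genes, and PIF1, DHX36, BLM and WRN the rest. The lowest gene of the upper set exceeded the highest of the lower set 3.5-fold in replicate 1, 5.9-fold in replicate 2 and 5.73-fold in replicate 3. Within each set the ranges of all neighbours overlapped. Of 9 pairs of neighbours in the order of mean TPM, 2 had replicate ranges that did not overlap, ERCC2 above PIF1 and WRN above RTEL1. This rested on replicate 3, since without it 6 of the 9 pairs had ranges apart. BRIP1 was above ATRX, and PIF1 above DHX36, in 3 of 3 replicates although their ranges overlapped. DHX36, BLM and WRN were nearly level, with means that differed by 0.03 and 0.07 on the log2 scale from one to the next, and changed places between replicates.

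**Figure D1:**
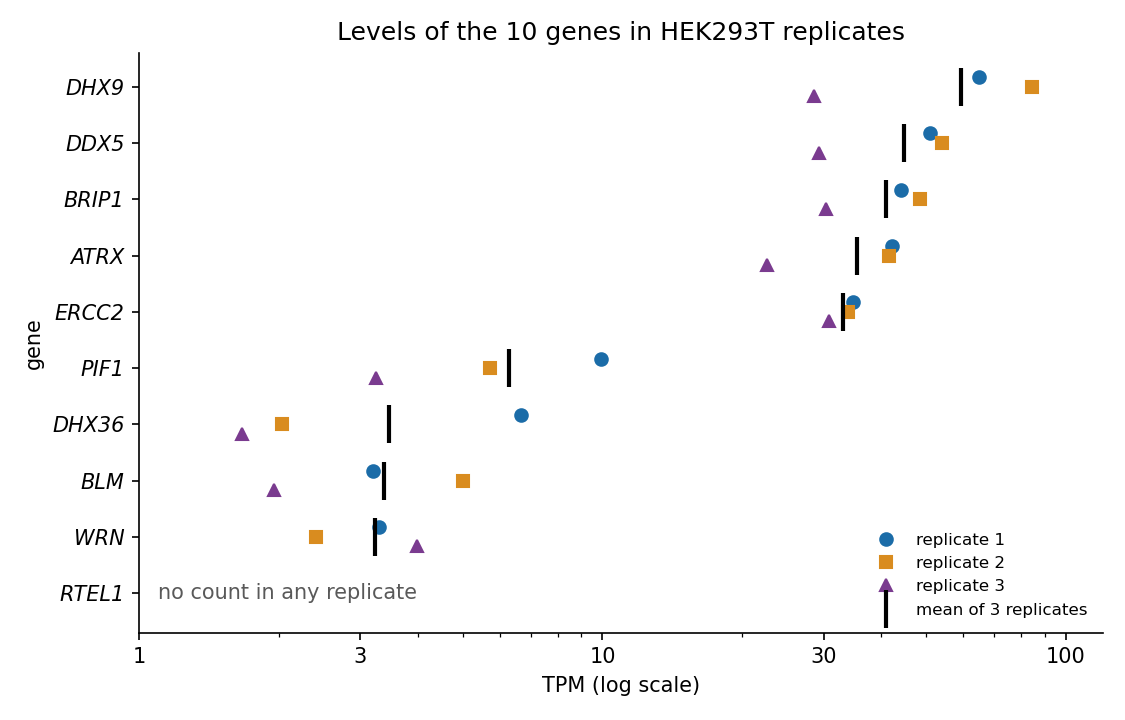
Level of each gene in TPM (horizontal, log scale) in replicates 1, 2 and 3 (circle, square and triangle), with a black bar at the mean of the 3. The upper 5 genes lie between 22.7 and 84.5 TPM, the next 4 between 1.67 and 9.91 TPM, and RTEL1 has no count.

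Among the enzymes that act largely on RNA, DHX9 (ENSG00000135829, chr1:182839347-182887982, plus strand, GRCh38) was the highest of the 10 genes. It stood at 64.9 TPM in replicate 1, 84.5 in replicate 2 and 28.6 in replicate 3, a mean of 59.3 ± 28.3 (SD, n = 3) from 1170, 1288 and 777 counts. Replicate 3 was below both others by more than they differed from each other. DHX9 held 24.7% ± 5.86 of the summed TPM of the 10 genes, from 18.7% in replicate 3 to 30.4% in replicate 2. DDX5 (ENSG00000108654, chr17:64498254-64508199, minus strand), a coactivator of transcription, followed with 51 TPM, 54 and 29.4, a mean of 44.8 ± 13.4. Here too replicates 1 and 2 were close and replicate 3 was low.

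DHX36 (ENSG00000174953, chr3:154272546-154324487, minus strand), which binds folded G4s with high affinity, was more than 10 times lower than both. It had 21 counts in replicate 1, 8 in replicate 2 and 9 in replicate 3, which gave 6.66, 2.03 and 1.67 TPM and a mean of 3.46 ± 2.78. This was the widest spread relative to the mean of the 9 genes with counts, a coefficient of variation of 80.5%. Replicate 1 weighed most, and without it the mean was 1.85 TPM.

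The RecQ helicases were both low. BLM (ENSG00000197299, chr15:90717346-90816166, plus strand), which dissolves joined DNA molecules in recombination, stood at 3.2, 4.99 and 1.95 TPM in replicates 1 to 3, a mean of 3.38 ± 1.53 from 240 counts in all. WRN (ENSG00000165392, chr8:31033788-31176138, plus strand), a helicase that is also an exonuclease, stood at 3.3, 2.41 and 3.97 TPM, a mean of 3.23 ± 0.781 from 362 counts. Replicate 3 was the lowest of the 3 for BLM and the highest for WRN.

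Of the iron-sulfur helicases, BRIP1 and ERCC2 were in the upper set and RTEL1 had no counts. BRIP1 (ENSG00000136492, chr17:61679139-61863559, minus strand), a partner of BRCA1, had 996, 911 and 1100 counts and stood at 44, 48.5 and 30.4 TPM, a mean of 41 ± 9.42. Per 1000000 counts of nuclear genes BRIP1 stood at 157, 154 and 174, so replicate 3 was then the highest. ERCC2 (ENSG00000104884, chr19:45349837-45370918, minus strand) stood at 34.7, 33.8 and 30.9 TPM, a mean of 33.1 ± 1.97, with a coefficient of variation of 5.97%, the smallest of the 9 in TPM. Per count of nuclear genes it was 21%, and BRIP1 had the smallest at 6.63%. RTEL1 (ENSG00000258366, chr20:63657810-63696253, plus strand) had 0 counts on all of its 15 listed transcripts in all 3 replicates. Per replicate that allows up to 0.427, 0.479 and 0.352 counts per 1000000 (CPM), a limit that covers counting error only. PCR copies of a molecule could not be recognised. Reads left uncounted at a shared end are not covered either. All of the last 300 bases of the canonical transcript RTEL1-203 are shared with other listed transcripts, so this is no upper limit for RTEL1 RNA.

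PIF1 (ENSG00000140451, chr15:64815632-64825668, minus strand) led the lower set with 65, 33 and 33 counts, or 9.91, 5.72 and 3.25 TPM, a mean of 6.29 ± 3.37. ATRX (ENSG00000085224, chrX:77504880-77786233, minus strand) belonged to the upper set with 42.2, 41.6 and 22.7 TPM, a mean of 35.5 ± 11.1. Replicate 1 was the highest for PIF1, while replicates 1 and 2 of ATRX lay close together above replicate 3.

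A library primed at the poly(A) tail gives about 1 read position per molecule, so division by length lowers long transcripts. In CPM, without division by length, DHX9 stayed first at 155 ± 58.2 and BRIP1 came second at 139 ± 8.62. ATRX, whose listed canonical transcript has 11167 bases, stood at 65 ± 13.4 CPM and was then the lowest of the upper set. WRN rose from the lowest of the 4 to the highest at 16 ± 5.38 CPM, and DHX36 became the lowest gene with counts at 1.78 ± 1.06 CPM. On this scale 5 of the 9 pairs of neighbours had ranges apart, but the upper set and the lower set held the same genes.

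Replicate 3 did not move all of the genes together. Relative to the counts of nuclear genes, which leave out the mitochondrial share, the log2 ratio of replicate 3 to replicates 1 and 2 pooled had a median of 0.09 over 5594 protein-coding genes with at least 100 counts, with the 5th percentile at -0.60 and the 95th at 0.99. DHX9 was at -0.71 (95% exact interval of counting -0.82 to -0.59), and 3.43% of those genes were lower. WRN was at 1.00 (0.70 to 1.31), with 95.2% of those genes lower. ERCC2 was at 0.48 (0.35 to 0.61) and BRIP1 at 0.16 (0.05 to 0.27), whereas DDX5 was at -0.20 (-0.33 to -0.08) and ATRX at -0.24 (-0.41 to -0.07). PIF1 at -0.62 (-1.23 to -0.03) and DHX36 at -0.73 (-2.00 to 0.38) were also below the 5th percentile, and BLM was at -0.44 (-0.88 to -0.03). These 3 had fewer counts and wide intervals, and that of DHX36 included 0. The ratio was taken as a description of 1 library, and the part of its mitochondrial share in it was not tested.

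**Figure D2:**
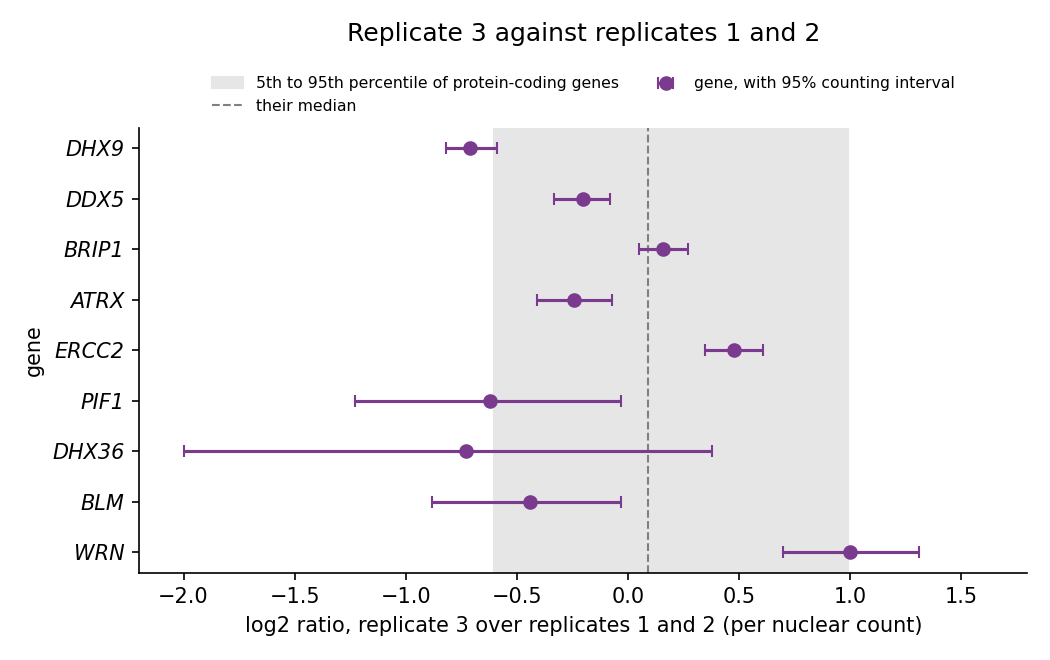
Log2 ratio of replicate 3 to replicates 1 and 2 pooled, per count of nuclear genes (horizontal), for the 9 genes with counts; bars are 95% counting intervals and the grey band runs from the 5th to the 95th percentile of 5594 protein-coding genes. DHX9 at -0.71, DHX36 at -0.73 and PIF1 at -0.62 lie left of the band, of which DHX36 and PIF1 have wide intervals that reach far into it, and WRN at 1.00 lies at its right edge.

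The counts of a gene lay on few of its listed transcripts. The 10 genes had 134 listed transcripts, of which 32 held the 12735 counts, and 16 transcripts with at least 20 counts held 99.6% of them. For DHX9, DDX5, BRIP1, ERCC2, BLM and WRN the canonical transcript held nearly all counts, from 95.6% for BRIP1 to 99.9% for DDX5. A canonical transcript held more than 50% of the counts in 63.0% of protein-coding genes with at least 30 counts. The other 3 genes with counts, ATRX, PIF1 and DHX36, departed from this.

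**Figure D3:**
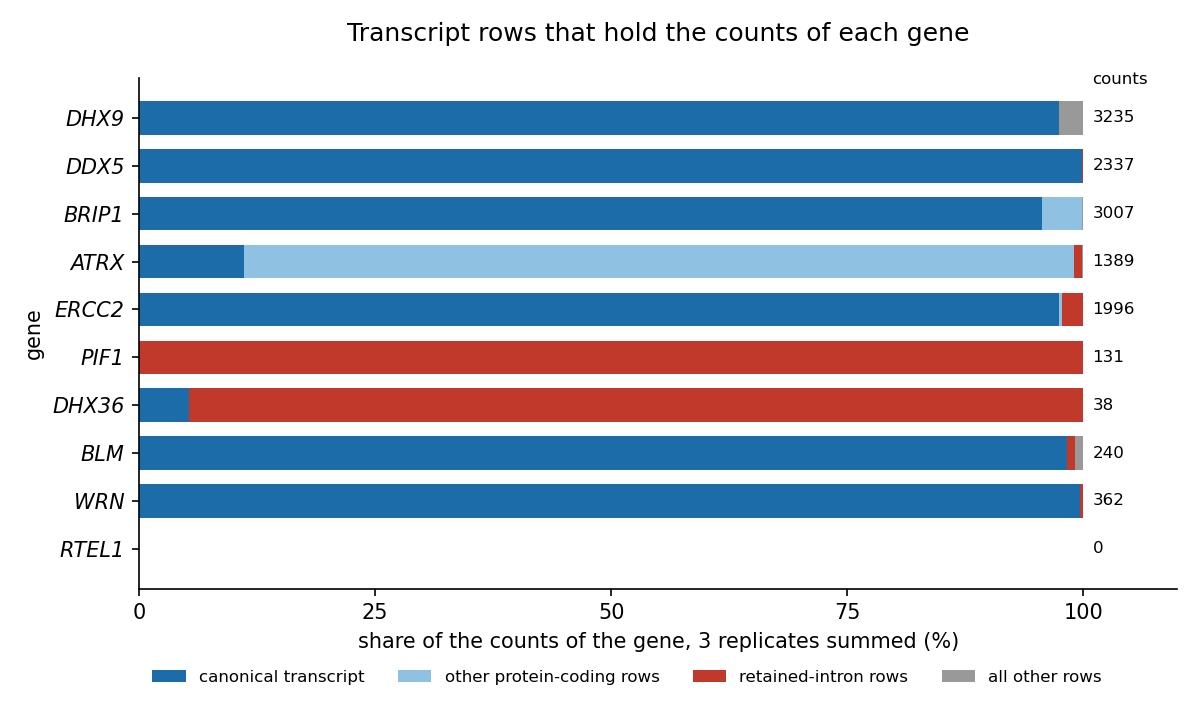
Share of the counts of each gene (horizontal, percent, 3 replicates summed) on its canonical transcript (dark blue), other protein-coding transcripts (light blue), retained-intron transcripts (red) and all others (grey), with the number of counts at the right. The bars of ATRX, PIF1 and DHX36 are not led by the canonical transcript, and RTEL1 has no bar because it has 0 counts.

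In ATRX the short transcript ATRX-207 of 2967 bases held 82.9% of the counts, with 443, 378 and 331 in replicates 1 to 3 and a mean of 27.6 ± 9.44 TPM. It has 2272 bases to itself, found in no other listed transcript, at chrX:77673954-77676225, inside intron 10 of the canonical transcript, which has 35 exons. It is annotated as protein-coding and its last 50 bases hold the poly(A) signal AATAAA. A second coding transcript, ATRX-203, ends inside intron 22 and held 4.97% of the counts but, being short, 16.4% of the TPM. The canonical transcript ATRX-201, whose end lies 169074 bases farther downstream, had 44, 50 and 60 counts, or 11.1% of the counts and 2.67% of the TPM. The counted level of ATRX given above was thus mostly that of ends inside the gene, and the canonical transcript alone stood at 0.947 ± 0.194 TPM. ATRX-202, a coding transcript, and ATRX-206 end at chrX:77505713, short of the end of ATRX-201. All of their last 300 bases are shared with other listed transcripts, and both had 0 counts. Reads left uncounted at that shared end were not tested, so the value of ATRX-201 is no upper limit for such ATRX RNA.

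In PIF1 all 131 counts lay on 2 transcripts annotated as retained introns. Retained-intron transcripts held more than 50% of the counts in 10.4% of protein-coding genes with at least 30 counts. PIF1-208, of 1631 bases, had 47, 27 and 28 counts and a mean of 4.41 ± 1.89 TPM, and it reads into intron 4 of the canonical transcript. PIF1-209 had 18, 6 and 5 counts and reads into intron 2. The canonical transcript PIF1-205 and the other coding transcripts, PIF1-201 and PIF1-202, had 0 counts, so coding PIF1 RNA was not detectable at this depth and with this counting.

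In DHX36, 94.7% of 38 counts lay on retained-intron transcripts. DHX36-211, of 833 bases, had 12, 6 and 8 counts and ends inside intron 3 of the canonical transcript, with 395 bases of its own there. DHX36-209 had 5 counts in replicate 1 and none in the others. The canonical transcript DHX36-213 had 1 count in replicate 1, 1 in replicate 2 and 0 in replicate 3, which is within the limit of 3 counts. All of its last 300 bases lie in no other listed transcript. The coding transcripts DHX36-201 and DHX36-202 end short of these, at chr3:154275668 and chr3:154276171. All of their last 300 bases are shared with other listed transcripts, and both had 0 counts. Reads left uncounted at these shared ends were not tested, so the counts of DHX36-213 are no upper limit for coding DHX36 RNA.

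The bases just after an annotated end are shown for the transcripts on which these levels turn, because a library primed with oligo(dT) can start at a run of As in the template as well as at a poly(A) tail. They are the 20 bases after the end, on the strand of the gene, in GRCh38, with As in capitals. DHX9-201 (chr1:182887983-182888002) and ATRX-207 (chrX:77673934-77673953) are printed beside PIF1-208 (chr15:64821570-64821589), PIF1-209 (chr15:64823246-64823265), BRIP1-202 (chr17:61684752-61684771) and DHX36-211 (chr3:154314631-154314650).
DHX9-201: cAtttggcttcctcccAtAt
ATRX-207: ttcttgttcAAgcAtttAAt
DHX36-211: ttAtgtgAtgtgctttgttc
PIF1-208: AAAAAAAAAAAAAAAAAAAA
PIF1-209: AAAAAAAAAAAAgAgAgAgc
BRIP1-202: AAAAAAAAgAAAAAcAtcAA

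Both PIF1 transcripts ended at a run of As in the genome, with 20 As in 20 bases for PIF1-208 and 15 for PIF1-209, and neither held AATAAA or ATTAAA in its last 50 bases. At least 12 As were found in 6.34% of 12561 transcripts with at least 30 counts, and either signal in 59.6%. The minor transcript BRIP1-202, with 20, 15 and 29 counts, also ended at such a run, with 16 As and no signal. ATRX-207 had 5 As after its end and DHX36-211 had 2, and they held AATAAA and ATTAAA. The part of the A runs in the counts of PIF1 and BRIP1-202 was not tested.

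Counts were found where a transcript had bases of its own. Exclusive bases were exonic bases that belong to 1 assessed transcript alone, looking at the strand of the gene. Of the 134 transcripts, 17 had a deposited length more than 5% away from GENCODE v44 and were left out of the comparison. An exclusive base can therefore still lie in a transcript that was left out. The other 117 were assessed. The 39 of these with no exclusive base held 0 counts, and the 78 with at least 1 held 9796. Within the last 300 bases, 76 transcripts had no exclusive base and held 144 counts, while 41 had some and held 9652. Canonical transcripts of 16859 protein-coding genes could be assessed in the same way. Those with all of their last bases exclusive had a median of 85 counts over the 3 replicates, and 34.2% of 7015 were at or under 3. Those with none exclusive had a median of 0, and 96.7% of 6348 were at or under 3.

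**Figure D4:**
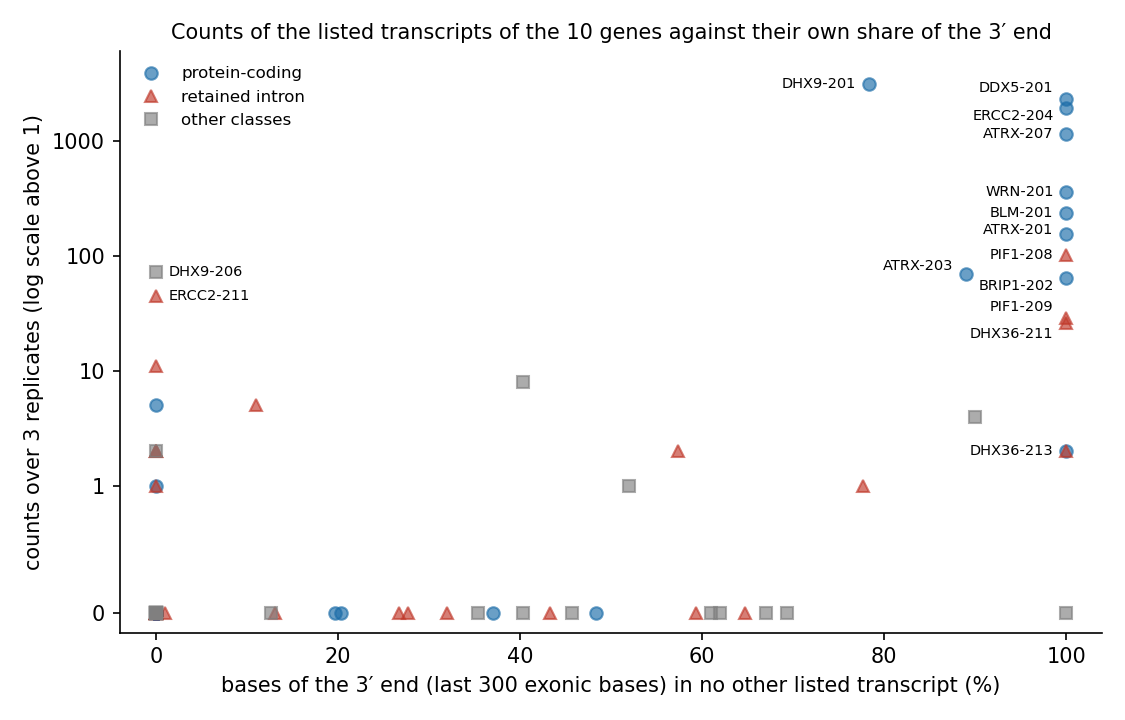
Counts over 3 replicates (vertical, log scale above 1) of the 117 assessed transcripts of the 10 genes against the share of their last 300 exonic bases that is exclusive (horizontal, percent), by annotated class. Exclusive means in no other assessed transcript, and BRIP1-202 was thus not compared with BRIP1-201. Transcripts at 0% hold at most 73 counts each, and the 4 with more than 1000 lie at 78.3% (DHX9-201) or at 100%; many of the points at 0 counts overlap.

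The genes can be read against this. The last 300 bases of ERCC2-204, BLM-201, WRN-201 and ATRX-201 were all exclusive, and 235 of those of DHX9-201 were. Those of DDX5-201 were exclusive only among the assessed transcripts, which were 21 of the 30 listed for DDX5. In GENCODE v44, 7 of these 30, DDX5-201 included, end within 10 bases of its end, so its end is not clear of other listed transcripts. For the canonical transcripts RTEL1-203 and PIF1-205 none of the last 300 bases were exclusive, a state shared by 37.7% of canonical protein-coding transcripts. RTEL1 also shares 4522 exonic bases on its own strand with the readthrough gene RTEL1-TNFRSF6B, which had 0 counts too. A lack of RTEL1 or coding PIF1 RNA and reads left uncounted at a shared end cannot be told apart here, since the counting rule for such reads is not given in the sources used here. The same holds for coding DHX36 RNA and ATRX RNA with the shared ends of DHX36-201, DHX36-202, ATRX-202 and ATRX-206. BRIP1-201 was not assessed, since it has 6048 bases in the deposited tables and 8182 in GENCODE v44. The exclusive bases of BRIP1-202 were therefore found without comparing it with BRIP1-201.

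Related copies and overlapping neighbours had counts of their own. The processed pseudogene DHX9P1 had 45, 30 and 17 counts, and DDX5P1 had none; reads that match both DHX9 and its copy may have been split between them. DHX9-AS1, which overlaps 110 exonic bases of DHX9 on the opposite strand, had 40, 34 and 67 counts, or 9.24 TPM in the mean. CEP95 overlaps DDX5 on the opposite strand by 252 bases and had 82, 45 and 30 counts, or 21.7 TPM. The strand setting of the counting is not given, so reads in these overlaps cannot be assigned with certainty.

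The partners of these enzymes were at uneven levels. For ERCC2, 5 of 9 TFIIH partners had a mean TPM of at least 1. GTF2H1 was the highest at 33 ± 8.39 TPM, close to ERCC2 itself, while the kinase CDK7 and the subunit GTF2H4 had no count and the sister helicase ERCC3 had 1, 2 and 3 counts. For BLM, its scaffold RMI1 stood at 48.6 ± 5.37 TPM and the topoisomerase TOP3A at 7.09 ± 0.615, and RMI2 had no count. For BRIP1, all 3 partners were above 1, with BARD1 at 19.6 ± 3.62 TPM, BRCA1 at 4.83 ± 2.94 and TOPBP1 at 2.12 ± 1.1. For ATRX, its histone gene H3-3B stood at 1295 ± 302 TPM, the gene H3-3A for the same histone at 0.139 ± 0.127, and the chaperone DAXX had no count. The last 300 bases of the canonical transcripts of DAXX, GTF2H4 and ERCC3 held no exclusive base, and those of CDK7 and RMI2 held 1 and 5. BRCA1 and the cyclin CCNH, at 2.82 ± 0.716 TPM, also had none and were above 1 TPM. For BARD1 and H3-3B all 300 were exclusive, whereas for H3-3A 18 were. The part of the shared end in the low value of H3-3A was not tested.

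The wider families were lower in the median than the 10 genes. None of the other RecQ helicases reached 1 TPM, with RECQL5 at 0.525 ± 0.108 and RECQL and RECQL4 without a count. Of the other iron-sulfur helicases DDX11 stood at 7.78 ± 0.997 TPM, DNA2 at 4.26 ± 1.7 and the pseudogene DDX12P, a near copy of DDX11 that may share its reads, at 0.379 ± 0.252. Of 6 subunits of the replicative MCM helicase, MCM6 at 302 ± 83.2 TPM and MCM5 at 15.7 ± 3.68 were above 1, and MCM3 was the lowest at 0.177 ± 0.307. Among 51 other DEAH-box and DEAD-box genes 28 were at or above 1, with a median of 1.29 TPM DHX40 the highest at 167 ± 12.7, and 8 genes, DDX4 among them, without a count. Among 25 other SNF2-type remodelers 12 were, with SMARCA5 the highest at 112 ± 30.9 TPM and INO80 without a count. Among 19 other G4-binding proteins 13 were, from CNBP without a count to NPM1 at 2002 ± 761 TPM. Over all lists, 67 of 124 genes were at or above 1 TPM, 32 were at or above 10 and 18 had no count, with a median of 1.33 TPM beside 19.7 TPM for the 10 enzymes.

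**Figure D5:**
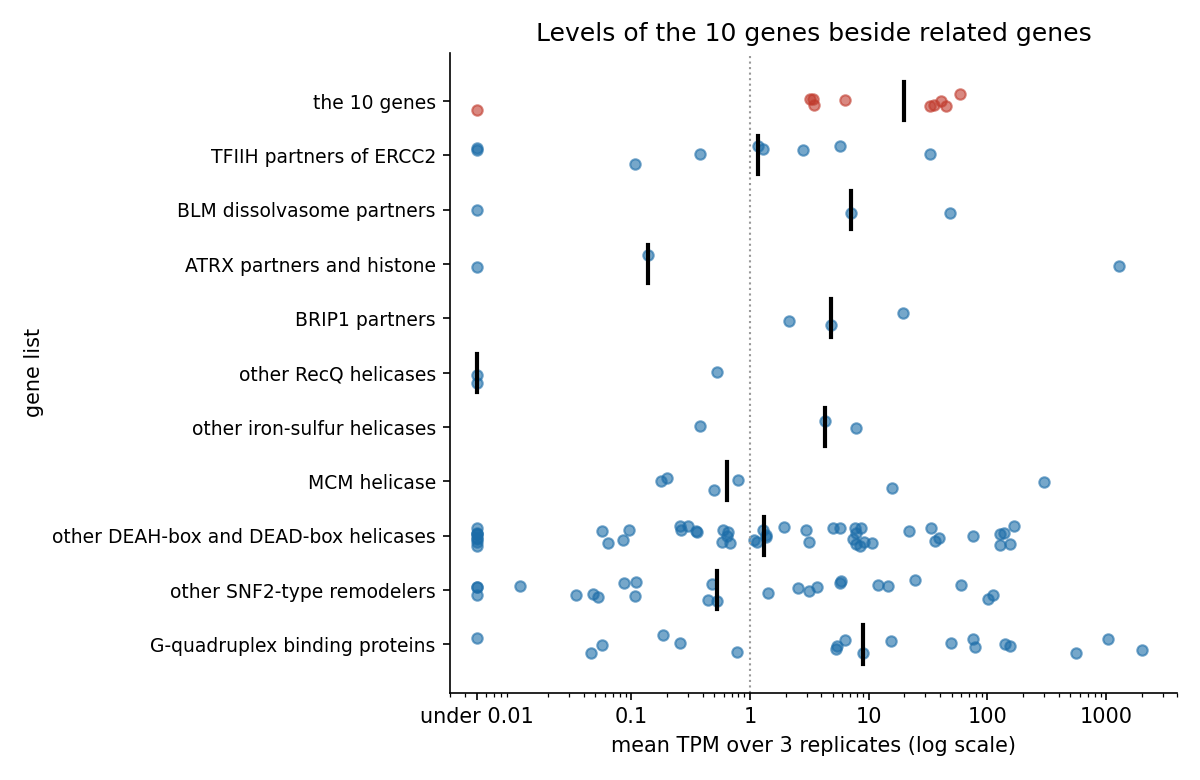
Mean TPM over 3 replicates (horizontal, log scale) of the 10 enzymes (red) and of each list of related genes (blue), 1 point per gene with vertical scatter for visibility, 1 DEAD-box gene not drawn, black bars at the medians and a dotted line at 1 TPM; genes under 0.01 TPM are drawn at the left edge. The 10 enzymes have a median of 19.7 TPM, above the median of every other list.

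Levels in these lists also moved with the exclusive ends. Of the related genes whose canonical transcript could be assessed, 74.4% of 39 with all of the last 300 bases exclusive were at or above 1 TPM, 46.4% of 28 with some and 40% of 40 with none. Over protein-coding genes the same shares were 56.4%, 33% and 23.3%. The part of the shared ends in the low values of the lists was not tested.

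Putative G4-forming sequences near the start sites were searched in the reference genome, as a description of sequence and not of folding. The motif was 4 tracts of at least 3 Gs with loops of 0 to 7 bases on either strand, which is also a putative iM on the strand opposite. With a loop of 0 bases, a run of 6 Gs counts as 2 tracts. The only motif of DHX36 and 1 of those of ATRX had 3 separate runs of Gs and matched in this way. All 10 genes had at least 1 within 1 kb of the canonical start, against 71.3% of 19913 protein-coding genes, so such a motif is common. From 250 bases before to 50 after the start it was found for 3 genes, DHX9, BRIP1 and WRN, against 36.0%. With 5 tracts it was found for 6 genes, against 48.7%. Looser rules separated the genes even less, since all 10 had a match with tracts of 2 Gs (99.5% of protein-coding genes), with loops of up to 12 bases (83.4%) or around any listed start (78.6%). The 20 motifs were uneven, with 5 at WRN, 3 each at ERCC2 and ATRX, 2 each at DHX9 and DDX5, and 1 at each of the others, around a median of 2 over protein-coding genes. The GC content of the window ran from 45.3% at BRIP1 to 62.8% at RTEL1, which had no counts, beside a median of 56% over protein-coding genes.

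The motifs upstream of the starts are shown as examples, on the strand that holds the Gs, with the G tracts of at least 3 in capitals. That of BRIP1 (chr17:61863533-61863561, GRCh38, minus strand) lies from 33 to 5 bases before the start. That of DHX9 (chr1:182839185-182839208) lies 162 to 139 bases before the start with its Gs on the minus strand, opposite to the gene. Those of DDX5 (chr17:64506559-64506581, minus strand), PIF1 (chr15:64826102-64826122, minus strand), RTEL1 (chr20:63657707-63657736, plus strand) and BLM (chr15:90716691-90716705, plus strand) lie farther out.
BRIP1: GGGctattGGGcgctGGGagtcgaGGGGG
DHX9: GGGagatGGGctgagccGGGcGGG
DDX5: GGGtGGGcGGGGctGGGcttGGG
PIF1: GGGGGcGGGGGaGGGattGGG
RTEL1: GGGGccttctGGGGccttctGGGGcatGGG
BLM: GGGaGGGcGGGaGGG

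Of the upper set, BRIP1 and DHX9 had a motif from 250 bases before to 50 after the canonical start, and DDX5, ERCC2 and ATRX had none there. WRN, which had 5 motifs and 2 of them within 250 bases of the start, was in the lower set. RTEL1, with no count, had its motif 605 to 576 bases upstream, and BLM, with a low level, 655 to 641 bases upstream. These positions depend on the start taken, since the RTEL1 motif falls in the promoter window of another RefSeq start (chr20:63657560-63657859, GRCh38.p14) and a DDX5 motif in that of another DDX5 start (chr17:64505888-64506187). With 10 genes these positions are listed beside the levels as a description.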

How the data were processed

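RNA-seq of 3 HEK293T replicates was used. The authors deposited raw read counts, without normalization, for 247541 transcripts per replicate, and the submitters' processing notes name Trimmomatic 0.38.0, HISAT2 2.2.1, featureCounts 2.2.1 and hg38, with no setting for strand or for reads on several transcripts. They also deposited transcript lengths in bases and TPM, and this deposited TPM was recovered when the counts were divided by length and scaled to 1000000 per library.

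Transcript identifiers were joined without version to GENCODE v44 (223558 transcripts, 61193 genes), and the rest, with 0.158% to 0.166% of the counts, stayed in the totals only. Counts and TPM were summed per gene. SDs are over replicates, and ranges of replicates stood in for a test, since there was 1 condition. Genes named are the 10 enzymes, their partners and the highest and lowest gene of each list. The enzymes, lists and rules were chosen with earlier results of these data known, and the lists were written from general knowledge. Exclusive bases were assessed for transcripts whose deposited length was within 5% of v44 (96.2%), a tolerance chosen after the data were seen. Each was compared only with the other transcripts that passed this tolerance. Ratios of replicate 3 have 95% exact conditional intervals. Promoter windows came from GRCh38 around the canonical start. RefSeq promoters (GRCh38.p14, 250 bases before to 50 after) were matched for 8 of the 10 genes and used as a check of position only.

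The libraries held 7019253, 6262175 and 8521624 counts, so 3 counts equal 0.427, 0.479 and 0.352 CPM. The alternatives were no division by length, mitochondrial genes left out, 1 transcript per gene, protein-coding transcripts only, other thresholds and averages, edgeR 4.0.16 TMM factors, DESeq2 1.42.0 size factors, other motif rules and each replicate left out. Python 3.11.15, numpy 2.4.6, pandas 2.3.3, scipy 1.17.1 and R 4.3.3 were used, and the steps were tested on simulated data.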

Additional observations from a re-analysis of the deposited data

How the results depend on the processing

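No paired analysis was possible because there was 1 condition and no second group to pair. A mean of 3 replicates cannot move by 1 SD when 1 of them is left out, so stability is not read from that. Among the levels, that of DHX36 fell from 3.46 to 1.85 TPM without replicate 1. The median of the 10 genes became 40.5 CPM without division by length and 27.6 TPM without mitochondrial genes. The number of neighbouring pairs with ranges apart, 2 of 9, became 5 in CPM and stayed at 2 with TMM or DESeq2 size factors. With each replicate left out it was 3 to 6, and replicate 3 decided this, since without it 6 pairs were apart. The number of genes at or above 1 TPM stayed at 9 with each replicate left out, the median ran from 18.3 to 21 TPM, the share of DHX9 from 21.8% to 27.7% and the number of related genes from 64 to 68. With protein-coding transcripts only, 7 enzymes and 50 related genes remained at or above 1 TPM, with DHX36 at 0.0239 TPM and PIF1 at 0. The share of all protein-coding genes was not computed for this setting, so the 7 are not read against a background. At 10 TPM, 5 enzymes and 32 related genes passed. A putative G4 was found for 6 genes with 5 tracts and for 3 from 250 bases before to 50 after the start. DHX36, with 8 to 21 counts per replicate, and PIF1 rested on the fewest counts of the genes with counts. The part of depth in this was not tested.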
